A study of Mus musculus with 8 samples.

Results

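The regions described here are 3401 chromatin stretches more open in nuclei with much Sox9 RNA than in nuclei where none was captured. They were chosen from 116068 ATAC peaks of a single-nucleus study of mouse alveolarspheres, small three-dimensional cultures grown from the type II alveolar epithelial (ATII) cells of young and old mice in medium without serum or feeder cells. On day 9 the cultures received an adeno-associated virus of serotype 9 carrying Cre recombinase together with Sox9, or Cre alone, and then were kept for 4 days in differentiation medium, under which ATII cells turn into flat type I (ATI) cells. Only cells with tdTomato fluorescence were collected, and both kinds of culture had received Cre. RNA and open chromatin were read from the same nuclei, and the labels list 2 samples each for the RNA and the ATAC of Sox9-Cre and of Cre cultures.

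The deposited matrices pool 7224 nuclei with 4 barcode prefixes, called libraries A to D here, and the labels do not say which prefix belongs to which sample or to mice of which age. No nucleus was therefore assigned to Sox9-Cre or Cre, the matrix counts as 1 sample, and no test across samples was possible. Libraries C and D held 1.08 and 0.939 Sox9 UMIs (unique molecular identifiers, 1 for each RNA molecule read) per 10000, while A and B held 0.0147 and 0.0142. Within C and D, 311 nuclei with at least 5 Sox9 UMIs (197 of C and 114 of D) are called Sox9-high and were set against 3449 nuclei with 0 Sox9 UMIs (2130 of C and 1319 of D). Nuclei with 50 or more UMIs per 10000 of the airway genes Scgb3a1 and Bpifa1 were left out of both groups, and none of the 51 such nuclei of C and 49 of D had 5 Sox9 UMIs. A peak was a member if it had at least 30 ATAC counts in Sox9-high nuclei and its share of counts was at least 3 times that in the nuclei with 0 UMIs. Of 47589 peaks with enough counts 3401 met this, which is 7.15%. The 3 peaks over Sox9 itself passed both thresholds and were left out, since counts there can come from the viral sequence.

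Sox9 belongs to the SOX family of transcription factors, which bend DNA through an HMG box and recognise short sites around a core that is shown with the sequences below. Together with Sox5 and Sox6 it directs the formation of cartilage, and in the embryonic lung it marks the growing distal tips, while adult ATII and ATI cells hold little of it. ATAC counts mark sites where a transposase could cut, such as active promoters and enhancers.

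The members that lie over a gene's start are the ones whose sequence can be shown. RefSeq promoter windows (build GRCm38.p6, 250 bases before to 50 after a start) overlapped 66 of the 3401 members, in 72 windows of 68 genes. The following 7 are examples picked by hand after their values were seen. Sox6, Wfdc18 and BC006965 had the highest peak ratios, Adh1 the highest RNA fold, and Trim2, Mtmr2 and Cald1 are named genes with larger peak counts and RNA close to or moderately above that of 0-UMI nuclei. Other windows with as many counts or higher ratios than these 3 are not shown. They are written 5′ to 3′ along the gene, and capitals mark the SOX core, which reads ACAAT, or ATTGT when it lies on the opposite strand. Both of Sox6's cores face each other, an arrangement at which Sox9 and its close relatives are known to bind as a pair. The last 2 windows, of BC006965 and Adh1, hold no core.
Sox6 promoter, chr7:115824661-115824960, minus strand: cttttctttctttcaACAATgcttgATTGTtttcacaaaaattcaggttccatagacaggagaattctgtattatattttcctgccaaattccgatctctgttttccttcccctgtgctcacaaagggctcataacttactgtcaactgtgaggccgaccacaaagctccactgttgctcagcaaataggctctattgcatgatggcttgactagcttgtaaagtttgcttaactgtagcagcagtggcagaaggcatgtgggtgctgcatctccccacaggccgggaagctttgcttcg
Wfdc18 promoter, chr11:83708754-83709053, plus strand: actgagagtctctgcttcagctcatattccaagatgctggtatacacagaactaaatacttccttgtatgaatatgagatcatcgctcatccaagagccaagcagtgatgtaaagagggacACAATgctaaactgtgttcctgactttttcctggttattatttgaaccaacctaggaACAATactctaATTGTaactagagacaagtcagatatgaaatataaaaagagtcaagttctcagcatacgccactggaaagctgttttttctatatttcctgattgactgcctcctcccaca
Trim2 promoter, chr3:84270734-84271033, minus strand: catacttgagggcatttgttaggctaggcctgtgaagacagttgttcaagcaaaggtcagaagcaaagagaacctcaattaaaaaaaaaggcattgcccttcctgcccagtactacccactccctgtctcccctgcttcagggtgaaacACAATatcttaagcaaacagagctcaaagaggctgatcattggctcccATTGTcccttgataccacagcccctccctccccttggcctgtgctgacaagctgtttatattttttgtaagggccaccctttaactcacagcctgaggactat
Mtmr2 promoter, chr9:13765704-13766003, plus strand: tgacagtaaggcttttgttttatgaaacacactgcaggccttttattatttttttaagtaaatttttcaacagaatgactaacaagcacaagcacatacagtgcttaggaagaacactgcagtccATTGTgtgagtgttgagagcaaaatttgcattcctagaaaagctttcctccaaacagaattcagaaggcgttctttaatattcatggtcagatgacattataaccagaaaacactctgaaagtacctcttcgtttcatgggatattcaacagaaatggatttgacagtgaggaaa
Cald1 promoter, chr6:34598254-34598553, plus strand: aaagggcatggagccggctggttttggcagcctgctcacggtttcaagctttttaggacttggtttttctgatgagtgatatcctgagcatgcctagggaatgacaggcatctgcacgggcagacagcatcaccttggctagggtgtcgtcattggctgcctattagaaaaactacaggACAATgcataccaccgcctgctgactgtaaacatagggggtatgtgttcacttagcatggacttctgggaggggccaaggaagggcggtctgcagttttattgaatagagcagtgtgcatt
BC006965 promoter, chr11:112711307-112711606, minus strand: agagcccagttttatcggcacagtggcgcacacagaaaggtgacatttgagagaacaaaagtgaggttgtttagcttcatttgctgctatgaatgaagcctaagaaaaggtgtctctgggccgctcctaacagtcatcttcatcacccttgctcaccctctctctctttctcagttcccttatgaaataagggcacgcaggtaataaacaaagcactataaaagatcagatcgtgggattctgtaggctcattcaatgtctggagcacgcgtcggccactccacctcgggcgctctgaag
Adh1 promoter, chr3:138277335-138277634, plus strand: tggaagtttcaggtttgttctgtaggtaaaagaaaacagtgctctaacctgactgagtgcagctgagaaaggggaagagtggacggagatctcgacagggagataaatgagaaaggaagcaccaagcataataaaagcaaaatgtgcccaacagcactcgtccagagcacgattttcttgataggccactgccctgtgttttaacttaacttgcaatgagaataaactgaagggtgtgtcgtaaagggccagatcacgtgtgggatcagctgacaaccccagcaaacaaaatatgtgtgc

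The SOX core was found on either strand in 47 of these 72 windows (65.3%, exact binomial 95% interval 53.1 to 76.1), in 18.6% of 13564 windows over other peaks with enough counts and in 31.0% of all 32817 windows. The 72 windows come from 66 members and some share sequence, as those of Gm35454 do, so the intervals treat them as more independent than they are. Overlap with the member was as small as 4 bases, at Gm32164. Base composition differed as well, with a median GC of 46.3% in the windows over members and 62.0% over other peaks. With windows of either kind limited to a GC of at most 50.3%, the third quartile of the member windows, the core stood in 65.5% (51.4 to 77.8) of 55 member windows and in 42.2% (39.7 to 44.8) of 1435 others. The longer form AACAATG, which contains the core, stood in 18.2% (9.08 to 30.9) and 4.67% (3.64 to 5.89). The letters of the core in reverse order, TAACA, differed less under this limit, at 45.5% (32.0 to 59.4) and 40.1% (37.6 to 42.7), with intervals that overlap. A core and its mirror facing each other 3 to 5 bases apart were found in 1 member window, that of Sox6, and in 32 of all windows (0.0975%). Under the GC limit the shares were 1.82% (0.0460 to 9.72) of member windows and 0.627% (0.287 to 1.19) of others, with intervals that overlap.

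Other short motifs were counted in the same way under the GC limit, on both strands and with no overlap removed. GGAATG, the core bound by TEAD factors, stood in 32.7% (20.7 to 46.7) of member windows and 16.7% (14.8 to 18.8) of others. The AP-1 letters TGANTCA stood in 18.2% (9.08 to 30.9) and 10.7% (9.11 to 12.4), and the FOX letters TGTTTAC in 7.27% and 5.99%, both with overlapping intervals. GGGCGG, bound by KLF and SP factors, stood in 3.64% (0.443 to 12.5) and 20.2% (18.2 to 22.4), and the ETS letters CGGAAG in 3.64% (0.443 to 12.5) and 18.9% (16.9 to 21.0). Member windows were thus low in both of these letter runs of common promoters. CTTGAG, bound by the lung factor NKX2-1, stood in 7.27% (2.02 to 17.6) and 17.0% (15.1 to 19.0), and the CEBP letters TTGCNNCAA in 1.82% and 2.93%. These are matches of letters in a window, and binding was not measured.

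**Figure D1:**
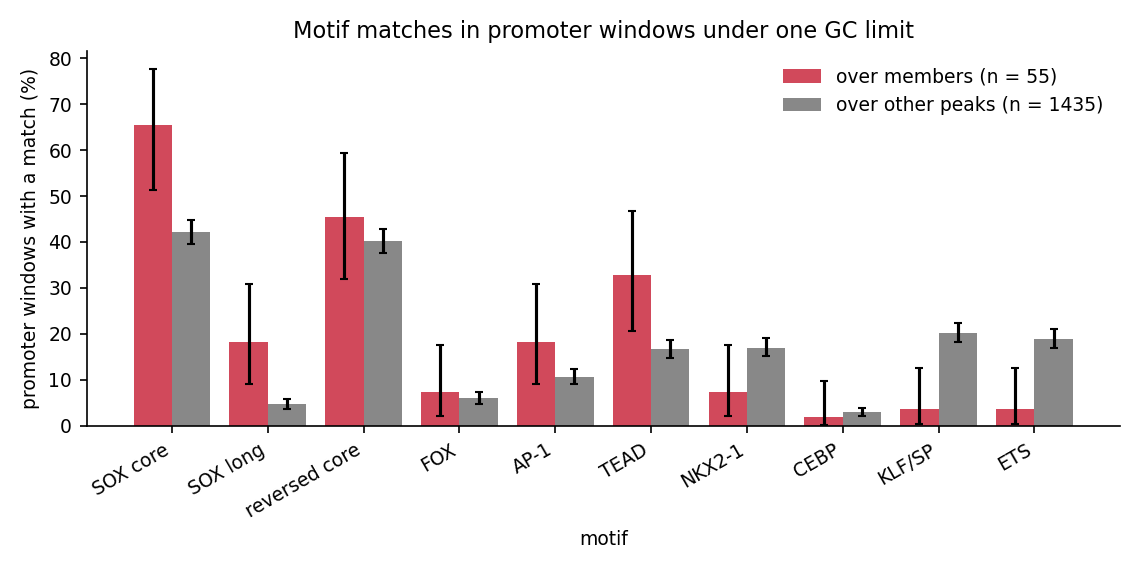
Share of RefSeq promoter windows with at least 1 match of each motif (vertical axis, percent) among 55 windows over members (red) and 1435 windows over other peaks with enough counts (grey), all with a GC of at most 50.3%. Bars of the SOX core stand at 65.5% and 42.2%, those of its reversed letters at 45.5% and 40.1%; error bars are exact binomial 95% intervals and cover counting error only.

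Few members were promoters. Of the 3401 members 62 (1.82%) covered a RefSeq transcription start, compared with 23.4% of the 44188 other peaks with enough counts. Gene bodies held 57.2% of members and 49.6% of other peaks, and stretches between genes 41.0% and 26.9%. The median distance to the nearest start was 26195 bp for members and 9318 bp for other peaks, while median widths were close, at 902 and 918 bp. Members were also sparse in the nuclei without Sox9 UMIs, with a median of 2.07 counts per 1000000 (CPM) there, while other peaks stood at 12.5. A peak high in those nuclei needs many more counts to reach a ratio of 3, so this difference is in part built into the rule. The X chromosome held 31 members (0.911%) and 1.66% of other peaks. Within 50 kb of another member lay 985 members (29.0%), compared with 22.7% of other peaks.

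Members ranged in ratio from 3.0003 to 45.1 with a median of 4.86, and these values chose them. At least 5-fold ratios were seen at 1645 members (48.4%) and at least 10-fold ratios at 487 (14.3%). Together they took 4.06% of all ATAC counts in Sox9-high nuclei and 0.814% in nuclei with 0 UMIs. The median member had 10.4 CPM in Sox9-high nuclei of C and 11.1 CPM in those of D, compared with 2.09 and 2.05 CPM in the 0-UMI nuclei of C and D and 1.52 and 1.47 CPM in those of A and B. A typical member was cut in few nuclei at this depth: it had a count in a median of 13.5% of Sox9-high nuclei and 2.29% of 0-UMI nuclei. Just inside the threshold, at a ratio of 3.0003 each, lay peaks in Fsip1, Arhgap44 and Cfap58, and just outside it lay peaks in Parm1 (2.999), in Synj2 (2.999) and 80343 bp from Gm26653 (2.9986).

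Depth and cell type markers differed between the 2 groups. Sox9-high nuclei had a median of 14352 UMIs and 13667 ATAC counts, 0-UMI nuclei 10579 and 10371. The summed RNA of 17 ATII markers stood at 287 and 341 per 10000 UMIs in Sox9-high nuclei of C and D, compared with 591 and 614 in their 0-UMI nuclei. All 17 had UMIs in Sox9-high nuclei, with the surfactant gene Sftpc at 215 and 454 per 10000 in the 2 groups. The 18 ATI markers summed to 46.2 and 55.7 in Sox9-high and 118 and 122 in 0-UMI nuclei, and the 17 transitional markers to 80.9 and 100.1 compared with 84.3 and 99.7. Airway secretory markers summed to 2.26 and 5.19 and ciliated markers to 0.0776 and 0.435 in the 2 groups, both lower in Sox9-high nuclei. Of 7 chondrocyte markers Acan and Matn1 had 0 UMIs in Sox9-high nuclei, while Col2a1 stood at 0.220 per 10000 there and 0.00417 in 0-UMI nuclei. With 0-UMI nuclei of at least the median depth of the Sox9-high nuclei as the comparison, 3250 peaks met the rule, 3097 of them members. The part of doublets in the ratios was not tested, and 20 barcodes occurred in more than 1 library.

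Nuclei with 1 to 4 Sox9 UMIs took no part in choosing the members, and their members were more open as well. The share of ATAC counts in members went up with every step of Sox9 UMIs, from 0.820% at 0 to 1.30% at 1 or 2, 1.91% at 3 or 4, 3.42% at 5 to 9 and 4.80% at 10 or more in library C. Library D gave 0.806%, 1.39%, 1.92%, 3.17% and 4.97% over the same steps. In A and B, where Sox9 UMIs were rare, 0-UMI nuclei had 0.623% and 0.628% and the 11 and 10 nuclei with 1 or 2 UMIs 1.004% (0.9502 to 1.06) and 1.0015% (0.912 to 1.098). The nuclei of C and D at 0 and at 5 or more UMIs are those that chose the members, so the distance of these steps from each other is built in. Between the steps that took no part, 1 or 2 and 3 or 4 UMIs, the exact Poisson 95% intervals did not overlap in C or in D. All intervals given here cover counting error only. The median UMIs of a nucleus also went up over these steps, from 10314 at 0 to 15314 at 10 or more in C, and from 11085 to 15429 in D.

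**Figure D2:**
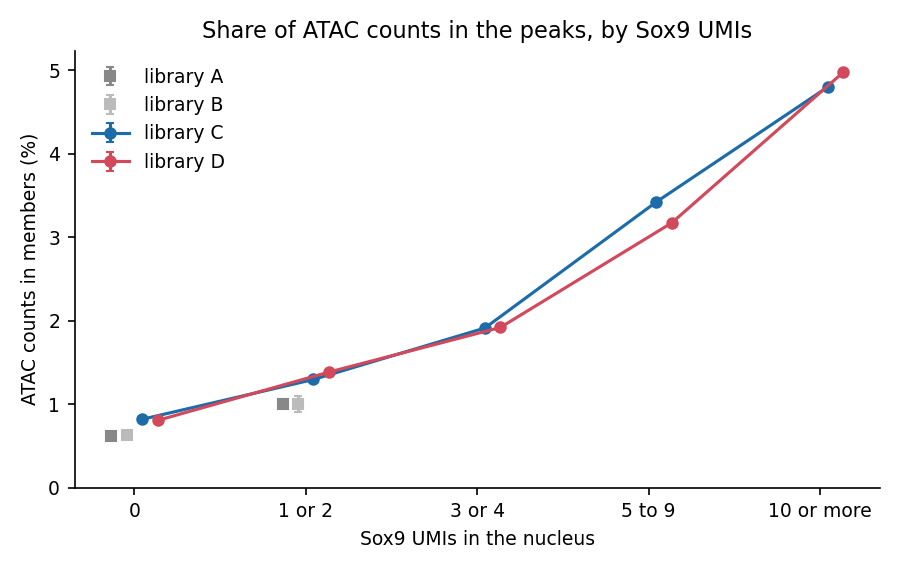
Share of all ATAC counts that fell in the 3401 members (vertical axis, percent) by the number of Sox9 UMIs in the nucleus (horizontal axis) and library; points are sums over nuclei and error bars exact Poisson 95% intervals. In C and D the share climbs from about 0.81% to above 4.7%, and the values of C and D at 0 and at 5 UMIs or more are those that chose the members.

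Peak by peak, 875 members (25.7%) were at least 2-fold more open in nuclei with 1 or 2 Sox9 UMIs than in 0-UMI nuclei of C and D, at a background of 1.85% of all peaks with enough counts. With 3 or 4 UMIs it was 2131 members (62.7%) at a background of 5.28%. The median ratio of the members was 1.62 and 2.30, that of all peaks 1.01 both times. The 0-UMI nuclei in these ratios are the ones the choice used. Against the 0-UMI nuclei of A and B, which took no part in the choice, 56.0% and 57.7% of members passed 2-fold at 1 or 2 UMIs. The background was 5.15% and 5.96% of all peaks with enough counts. At 3 or 4 UMIs 76.5% and 75.7% of members passed, at a background of 8.73% and 9.24%. The 0-UMI nuclei of C and D were themselves higher at members than those of A and B, with median ratios of 1.33 to 1.42, while all peaks stood at 1.02 to 1.03.

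The choice made in 1 library held in the other. The rule run in library C alone gave 1571 peaks, and 1535 of them (97.7%) were at least 2-fold more open in Sox9-high nuclei of library D, at a background of 9.88%. Run in D it gave 1219 peaks, 1167 of which (95.7%) passed 2-fold in C, at a background of 8.28%. Median ratios in the library that was not used were 4.99 and 4.31, and no chosen peak fell below 1 there. Peaks chosen in both numbered 824, which is 52.5% of those of C and 67.6% of those of D. Of the 3401 members, 3383 stood at 2-fold or more in each library. Their ratios rest on both libraries together, so this count is in part built into the choice. The share over all peaks was not counted.

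**Figure D3:**
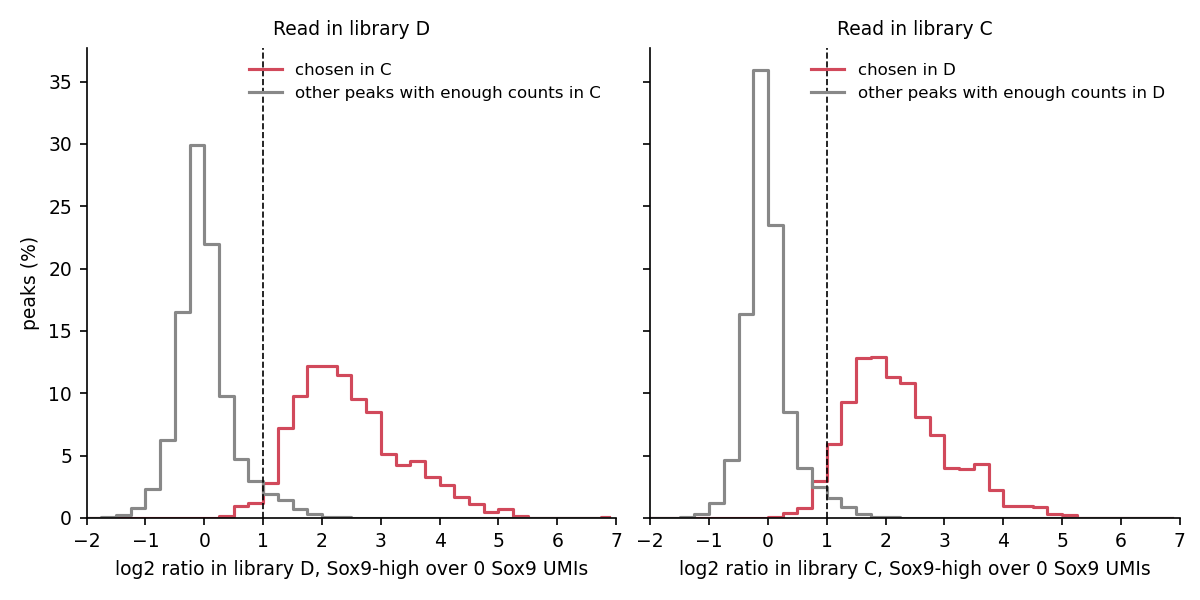
Distribution of the log2 ratio of Sox9-high over 0-UMI nuclei, read in library D for peaks chosen in C (left) and in C for peaks chosen in D (right), as percent of the peaks; red lines are the chosen peaks, grey lines the other peaks with at least 30 counts in the library that chose. The grey lines centre near 0, and 97.7% and 95.7% of the chosen peaks lie right of the dashed line at 2-fold.

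Single nuclei differed widely in how open the members were. For each nucleus with at least 1000 ATAC counts, the share of counts in peaks chosen in the other library was set against a threshold, the higher of the 99th percentiles of 0-UMI nuclei in A and in B (0.821% for peaks chosen in C and 0.729% for peaks chosen in D). In library D, 7.05% of 0-UMI nuclei passed it, then 34.1%, 60.9%, 71.2% and 88.2% of nuclei with 1 or 2, 3 or 4, 5 to 9 and 10 or more UMIs. In library C the shares were 8.67%, 30.9%, 57.3%, 80.5% and 85.7%. Some nuclei of C and D thus passed the threshold though no Sox9 UMI was captured in them, and some Sox9-high nuclei did not pass it. The threshold cuts a continuous share, and whether it parts separate kinds of nuclei was not tested.

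**Figure D4:**
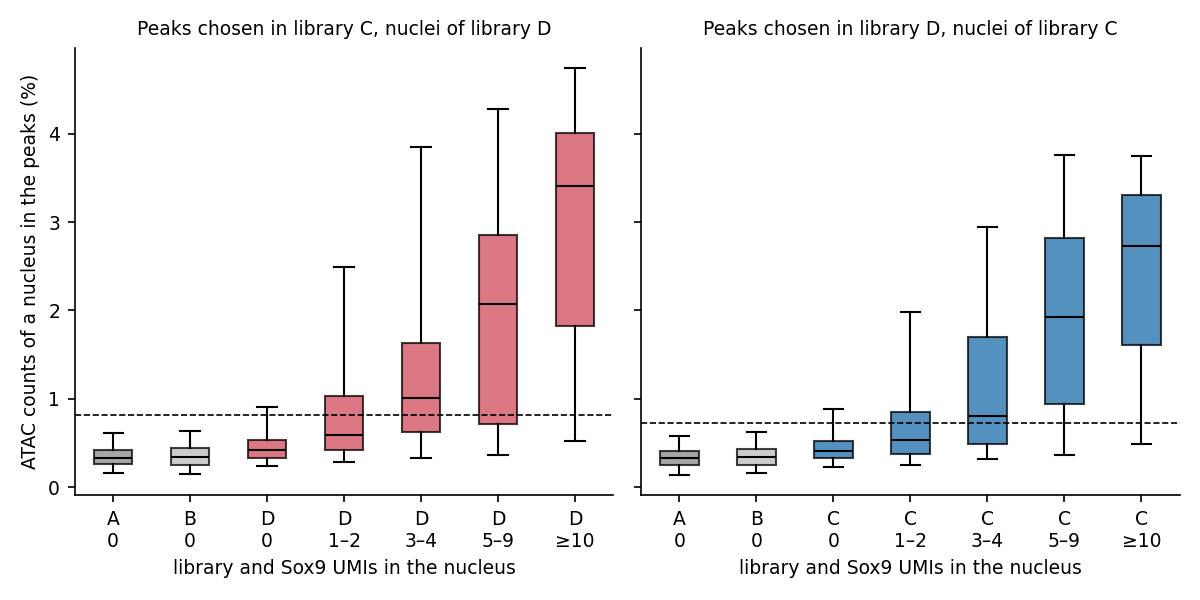
Share of a nucleus's ATAC counts in peaks chosen in library C, read in D (left), and chosen in D, read in C (right), by library and Sox9 UMIs; boxes span the quartiles with the median, whiskers the 5th to 95th percentiles, and the dashed line is the threshold from 0-UMI nuclei of A and B. Medians climb from 0.419% to 3.41% in D and from 0.411% to 2.72% in C, and boxes of neighbouring steps overlap.

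RNA set these nuclei apart. Of Sox9-high nuclei, 33 of 188 in C (17.6%) and 21 of 103 in D (20.4%) stayed at or below the threshold. Their ATII markers summed to 754 and 696 per 10000 in C and D, while those of the Sox9-high nuclei above it summed to 177 and 192. Sox6 RNA stood at 0.273 and 0.112 in those at or below the threshold and at 2.88 and 3.03 in those above it. Both kinds also differed in depth, with medians of 17958 and 16644 UMIs at or below the threshold and 14352 and 13446 above it. Conversely, 167 0-UMI nuclei of C and 85 of D lay above the threshold. In these the ATII markers summed to 178 and 267, and to 616 and 612 in the other 0-UMI nuclei. Sox6 stood at 0.498 and 0.740 in them and at 0.117 and 0.158 in the other 0-UMI nuclei. Col27a1, a cartilage collagen, stood at 0.0795 and 0.131 in them, from 15 and 14 UMIs, and at 0.00240 and 0.00498 in the others. Col9a3, another cartilage gene, stood at 0.0265 and 0.0468 in them, from 5 UMIs each, and at 0.00817 and 0.00569 in the others. Col2a1 had 1 UMI in them in each library. The cartilage list without Sox9 summed to 2.88 and 3.31 in them and to 3.42 and 3.22 in the others, lower in C and close in D. Of that list's 3.29 per 10000 over all 0-UMI nuclei, Matn4 gave 1.06, Sox5 0.851 and Sox6 0.160.

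Sox9-high nuclei above the threshold had low ATII sums like the 0-UMI nuclei above it, and differed from them in other genes. Their ATI markers summed to 40.3 and 43.3 in C and D, compared with 88.0 and 58.6 in the 0-UMI nuclei above the threshold. Transitional markers summed to 87.7 and 106 in the Sox9-high and to 119 and 121 in the 0-UMI nuclei above it. The cartilage list without Sox9 summed to 7.49 and 7.07 in the Sox9-high and to 2.88 and 3.31 in the 0-UMI nuclei above the threshold. Whether doublets or free RNA give part of these patterns was not tested.

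Members were more open than in any range of the ATII to ATI axis that was examined. The 0-UMI nuclei of C and D were ranked by summed ATII, ATI or transitional markers, and Sox9-high nuclei were compared with the 25% with the highest sum, 863 nuclei each time. Over the ATII range 3390 members (99.7%) were at least 2-fold more open, at a background of 16.5%, with a median ratio of 6.64. Over the ATI range 3398 members (99.9%) passed at a background of 14.3% and a median ratio of 5.79, and over the transitional range 3262 (95.9%) at a background of 11.7% and a median of 4.36. In all 3 comparisons 3248 members (95.5%) passed, at a background of 8.86%. These nuclei are part of the group that chose the members, so the counts describe the set. The share of ATAC counts in members was 0.667% in the ATII range, 0.722% in the ATI range and 0.987% in the transitional range. In the nuclei left out for their airway genes that had 0 Sox9 UMIs, which took no part in the choice, it was 1.27% (1.23 to 1.31) in 43 nuclei of C and 1.39% (1.36 to 1.43) in 39 of D, above all 3 ranges.

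Among the 12 members with the highest ratios, 29.6 to 45.1, 8 lay in gene bodies, 3 between genes and 1 over a start. The highest, chr10:64432730-64433586 in Ctnna3, which encodes an alpha-catenin, had 8.90 and 3.69 CPM in Sox9-high nuclei of C and D and 0.232 and 0.0511 CPM in 0-UMI nuclei (45.1-fold, 18.6 to 132, from 32 and 6 counts). The RNA of Ctnna3 stood at 1.44-fold (1.08 to 1.89, from 60 and 357 UMIs). A peak in Smim14, chr5:65451214-65452153, rested on more counts, with 20.8 and 20.8 CPM in Sox9-high nuclei of C and D and 0.557 and 0.563 CPM in 0-UMI nuclei (37.1-fold, 23.4 to 61.2), while Smim14 RNA stood at 0.967-fold (0.902 to 1.04). Wfdc18, which encodes a small secreted protein of the WAP family, had its start in a member with 14.5 and 17.5 CPM in Sox9-high nuclei and 0.603 and 0.409 CPM in 0-UMI nuclei (31.0-fold, 18.9 to 52.9). Its RNA stood at 0.871 per 10000 UMIs in Sox9-high and 0.0279 in 0-UMI nuclei (31.1-fold, 25.3 to 38.7). RNA of the nearest gene was at least 2-fold higher for 3 of the 11 of these peaks whose gene had enough UMIs. Over all genes with enough UMIs the share was 6.37%. The 3 were Wfdc18, the kinesin gene Kif5c (4.12-fold) and Tent5a (2.35-fold), the last 119984 bp from its peak.

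The 10 members with most counts had ratios of 3.03 to 11.97. The peak with most, chr7:75899109-75900003, lies 24976 bp from Klhl25, with 45.3 and 41.6 CPM in Sox9-high nuclei of C and D and 7.10 and 5.63 CPM in 0-UMI nuclei (6.82-fold, 5.66 to 8.20), and was cut in 42.4% of Sox9-high nuclei. A peak in the noncoding gene 9530036O11Rik, chr5:28567044-28567932, had 34.9 and 33.7 CPM in Sox9-high nuclei and 2.32 and 3.48 CPM in 0-UMI nuclei (11.97-fold, 9.40 to 15.3). The RNA of 9530036O11Rik went the other way, at 0.352-fold (0.310 to 0.399). Of the genes nearest to these 10 peaks, 8 had enough UMIs, of which 3 were at least 2-fold higher and 1 lower. Over all genes with enough UMIs these shares were 6.37% and 4.85%. The 3 were Ptprz1, 72216 bp from its peak, and Wnk2 and Btbd16, from 9 and 7 UMIs in Sox9-high nuclei.

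Genes with members nearby were more often higher in RNA. Of 13786 genes with at least 30 UMIs in the 2 groups together, 6.37% were at least 2-fold higher and 4.85% at least 2-fold lower in Sox9-high nuclei. The share of genes at least 2-fold higher was 4.76% among genes with no member over them or within 50 kb, then 9.55%, 13.4%, 23.8% and 26.4% with 1, 2, 3 and 4 or more. The share at least 2-fold lower was 5.32%, 3.58%, 3.59%, 1.54% and 1.89% over the same steps. Gene length went up alongside, from a median of 20847 bp with no member to 253140 bp with 4 or more, as did the median UMIs, from 854 to 3384, and their part was not tested. Among the 1762 genes with enough UMIs that were nearest to a member and within 50 kb of it, 279 (15.8%) were higher and 51 (2.89%) lower. RNA and ATAC came from the same nuclei and the same grouping that chose the members. Of the 26 genes with enough UMIs whose promoter window lay over a member, 12 were at least 2-fold higher and 0 lower.

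**Figure D5:**
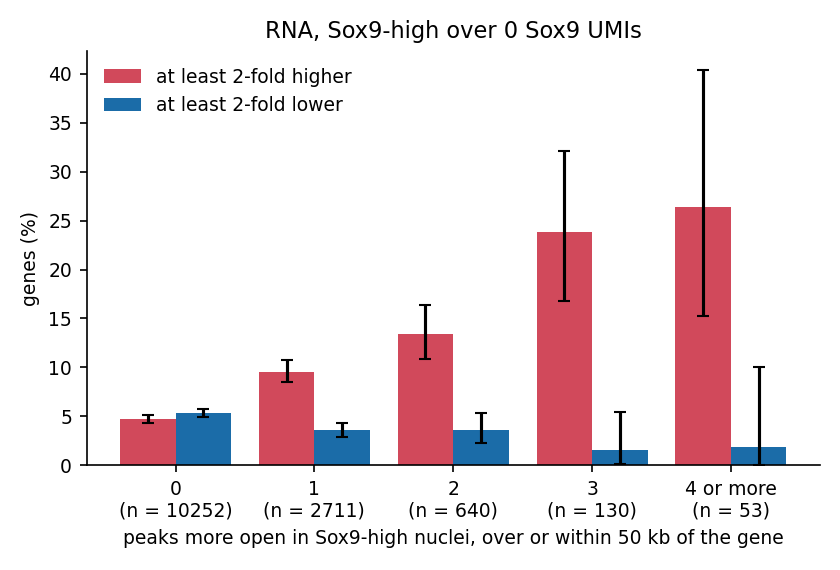
Percent of genes whose RNA was at least 2-fold higher (red) or lower (blue) in Sox9-high than in 0-UMI nuclei, by the number of members over the gene or within 50 kb of it; n is the number of genes and error bars are exact binomial 95% intervals over genes. The red bars stand at 4.76% with no member and 26.4% with 4 or more, the blue bars at 5.32% and 1.89%.

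Sox6 had the most members, 9 of the 14 peaks with enough counts over it or within 50 kb. Summed over these 9, it stood at 115.8 and 118.2 CPM in Sox9-high nuclei of C and D, 17.3 and 16.4 CPM in 0-UMI nuclei of C and D and 13.6 and 14.7 CPM in those of A and B. The single ratios ran from 3.39 to 21.1. The member over a Sox6 start, whose window is printed above with its facing pair of cores, had 14.1 and 10.2 CPM in Sox9-high nuclei and 0.557 and 0.665 CPM in 0-UMI nuclei of C and D (20.3-fold, 12.5 to 33.8). A further member 99041 bp from Sox6 had 20.4 and 12.9 CPM in Sox9-high nuclei and 0.696 and 0.563 CPM in 0-UMI nuclei (27.0-fold, 17.2 to 43.7). Sox6 RNA stood at 2.34 and 2.25 per 10000 UMIs in Sox9-high nuclei of C and D and at 0.142 and 0.189 in 0-UMI nuclei (14.4-fold, 13.04 to 15.9).

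Other genes with many members differed in how their RNA stood. Cers6, a ceramide synthase, had 6 members and RNA at 7.37-fold (6.68 to 8.12). Slc39a11, a zinc transporter gene next to the Sox9 region, had 8 members of 33 peaks, 128.6 CPM over them in Sox9-high and 20.7 CPM in 0-UMI nuclei, and RNA at 1.05-fold (0.857 to 1.27). Glis3, a zinc finger factor with 6 members, stood at 1.80-fold (1.66 to 1.95) in RNA, and Akap13, with 5, at 0.732-fold (0.709 to 0.755). Of the 183 tested genes with 3 or more members, 45 were at least 2-fold higher and 3 lower, beside 6.37% and 4.85% of all tested genes. The highest of the 45, named after their values were seen, were the receptor tyrosine kinase gene Kit (0.162 per 10000 in Sox9-high and 0.00613 in 0-UMI nuclei, 26.4-fold, 16.6 to 43.2), the G protein subunit gene Gna14 (19.0-fold, 13.9 to 26.4) and Sox6. Behind them came the homeobox gene Barx2 (12.6-fold, from 22 UMIs in Sox9-high nuclei) and Basp1 (10.1-fold, 16.2-fold in C and 6.11-fold in D).

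Within 2 Mb of Sox9 on chromosome 11, 12 of the 82 peaks with enough counts (14.6%) were members, beside 7.15% of peaks overall. The closest, chr11:112711242-112712171, covers the start of the noncoding gene BC006965, 70039 bp from Sox9. It had 23.0 and 7.85 CPM in Sox9-high nuclei of C and D and 0.743 and 0.563 CPM in 0-UMI nuclei (24.7-fold, 15.8 to 39.8). Sox9-high nuclei of both libraries were above all 0-UMI groups, and those of C stood higher than those of D. BC006965 RNA came from 22 UMIs in Sox9-high and 4 in 0-UMI nuclei (47.1-fold, 16.0 to 188). On the other side of Sox9, 9 members lay in or between 2610035D17Rik, 4732490B19Rik and Slc39a11, the highest of them in Slc39a11 at chr11:113259499-113260443, with 12.6 and 13.4 CPM in Sox9-high and 0.789 and 0.767 CPM in 0-UMI nuclei (16.6-fold, 10.7 to 26.3). The noncoding gene 2610035D17Rik stood at 4.305-fold (4.03 to 4.59) in RNA. The 3 peaks over Sox9 that were left out had ratios of 3.77, 4.13 and 4.64. In 0-UMI nuclei they had 21.0, 12.8 and 24.5 CPM in C, 18.3, 11.1 and 17.9 CPM in D, and 1.42 to 7.36 CPM in A and B.

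Cartilage genes often had members. Of 26 listed genes 13 (50.0%) had a member over them or within 50 kb, compared with 19.3% of all genes with a position. Sox9 itself is on the list and defines the groups, so it is left out of the RNA counts. Of the 16 other genes with enough UMIs, 11 (68.8%) had a member, compared with 25.6% of all such genes. In RNA 9 of the 16 were at least 2-fold higher and 2 lower, beside 6.37% and 4.85% of all such genes. Col9a3, which encodes a chain of collagen IX, had 2 members, the larger at chr2:180604488-180605411 with 21.9 and 21.2 CPM in Sox9-high nuclei of C and D and 2.65 and 1.59 CPM in 0-UMI nuclei (10.1-fold, 7.53 to 13.5). Its RNA stood at 0.601 and 0.507 per 10000 in Sox9-high nuclei of C and D, and at 0.0102 and 0.00801 in 0-UMI nuclei (60.8-fold, 43.2 to 87.8). Chst11, a sulfotransferase that modifies chondroitin, had 2 members at 4.299-fold and 9.99-fold and RNA at 66.7-fold (34.4 to 145, from 78 and 10 UMIs). Both genes were thus higher in RNA by far more than their members were in ATAC. Col11a2, a collagen XI chain, had 2 members and RNA at 10.7-fold (7.42 to 15.5).

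Some cartilage genes with members were not higher in RNA, and some without members were. Runx2, a bone and cartilage factor, had 4 members and RNA at 0.657-fold (0.505 to 0.844). Sox5, the other Sox9 partner, had 3 members, the largest at chr6:144041670-144042462 with 3.11-fold, and RNA at 0.754-fold (0.669 to 0.848). Matn4, which encodes a matrilin, had 1 member 29817 bp away, in the body of another gene, Sdc4. Matn4 RNA stood at 0.477-fold (0.417 to 0.543). Col27a1, which encodes a fibrillar collagen of cartilage, had 0 members among 10 peaks with enough counts, while its RNA stood at 0.516 per 10000 in Sox9-high and 0.0101 in 0-UMI nuclei (51.3-fold, 36.8 to 73.3). Col11a1 and Comp had 1 member each but rested on 1 library, with 33 of the 35 Col11a1 UMIs of Sox9-high nuclei in C and 25 of the 26 Comp UMIs in D.

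WNT genes were split in the direction of their RNA. Of 25 WNT genes 12 (48.0%) had a member, compared with 19.3% of all genes with a position. Of the 20 with enough UMIs 11 (55%) had a member, compared with 25.6% of all such genes. Near the 25 genes lay 211 peaks with enough counts, 17 of them members. The part of gene length and of the number of peaks was not tested. In RNA 4 of the 20 were at least 2-fold higher and 4 lower, beside 6.37% and 4.85% of all such genes. The WNT receptor gene Ror1 had 2 members and RNA at 3.499-fold (3.11 to 3.93), while the ligand gene Wnt7a had 1 and RNA at 0.313-fold (0.235 to 0.408). Of 19 distal tip genes other than Sox9, 5 (26.3%) had a member, as had 5 (33.3%) of the 15 with enough UMIs. Of these 15, 1 was at least 2-fold higher and 2 were lower in RNA, beside the same 6.37% and 4.85%. Hmga2, a chromatin protein of embryonic cells, had 3 members and RNA at 6.77-fold (3.51 to 12.9, from 19 and 24 UMIs). A member 16064 bp from Etv5, a factor of distal tips and ATII cells, had 12.6 and 15.2 CPM in Sox9-high and 1.30 and 0.614 CPM in 0-UMI nuclei (14.2-fold, 9.43 to 21.5), with Etv5 RNA at 0.707-fold (0.644 to 0.774).

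For the remaining lists, the share with a member ran from 15.4% to 33.3%, beside the 19.3% over all genes. Among their genes with enough UMIs it ran from 20% to 38.9%, beside 25.6% of all such genes. Of 21 BMP and TGF-beta genes 7 (33.3%) had a member, with 1 of 18 higher and 2 lower in RNA, beside 6.37% and 4.85% of all genes with enough UMIs. A member in Tgfb2, which encodes a TGF-beta ligand, had 15.2 and 16.6 CPM in Sox9-high and 0.975 and 0.767 CPM in 0-UMI nuclei (18.1-fold, 12.025 to 27.7), with RNA at 0.878-fold (0.756 to 1.01). Of 16 other Sox genes 4 (25%) had a member, Sox13, Sox30, Sox10 and Sox8, and of 13 Notch genes 2 (15.4%), Notch1 and Notch3. Some of these members lay outside the listed gene. That of Sox10 was 28398 bp away in Gm10863, that of Sox30 7731 bp away, and that of Sox8 6329 bp away and nearer to Lmf1. Those of Notch1 were 36735 bp away and 39141 bp away, the latter in Sec16a. Of 14 genes of the mesenchymal transition 3 (21.4%) had a member, Vim, Zeb2 and Fn1, and all 3 were at least 2-fold higher in RNA. Over that list 5 of 8 genes with enough UMIs were higher and 2 lower, beside the same 6.37% and 4.85%. The member in Zeb2, a repressor of epithelial genes, had 14.8 and 9.23 CPM in Sox9-high and 0.696 and 0.716 CPM in 0-UMI nuclei (17.5-fold, 11.1 to 28.3), and Zeb2 RNA stood at 26.5-fold (16.0 to 45.6). Vim, which encodes the filament protein vimentin, had a member at 6.27-fold (4.66 to 8.398) and RNA at 27.3-fold (21.3 to 35.2). Fn1, which encodes fibronectin, had a member 36402 bp away at 5.13-fold (3.55 to 7.36) and RNA at 2.33-fold (2.07 to 2.61).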

How the data were processed

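Nuclei were profiled with a combined ATAC and gene expression kit. The authors deposited raw counts per peak and nucleus and per gene and nucleus, per the file headers and values, pooled over all samples. Per the submitters' processing notes, the builds GRCm38 and mm10 and the tools Signac 1.10.0, Seurat 4.3.0 and Cell Ranger 6.0.1 were used, with no role named. The peak caller and filters on nuclei were not given in the sources used here. Counts were summed per group with Python 3.11.15, numpy 2.4.6, scipy 1.17.1 and pandas 2.3.3, figures were drawn with matplotlib 3.10.9, and CPM are counts per 1000000 ATAC counts of the group. Intervals are exact 95% Poisson or binomial intervals and cover counting error only. Genes needed 30 UMIs and peaks 30 counts. No doublet caller was run, and free RNA was not removed. The rule was also run on simulated Poisson counts with no added variation between nuclei, and known folds were set only at peaks with many counts in 0-UMI nuclei. Members had a median of 85 counts there, so that run does not cover peaks as sparse as a typical member. The members and gene lists were chosen with earlier results of these data known. Peaks named are the 12 with the highest ratios, the 10 with most counts, those by listed genes, those within 2 Mb of Sox9, those at the threshold, and those of up to 12 genes with 3 or more members. No genome was used, so sequences come only from the RefSeq promoter table.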

Additional observations from a re-analysis of the deposited data

How the results depend on the processing

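Of 56 alternatives to 13 results, 39 moved a count by less than 1.5 times or a value by less than the spread between libraries. The other 17 moved more. The 13 results are counts, shares and a median ratio of chosen peaks, which have no direction that could change. For the median ratio that spread was the standard deviation between the 2 libraries, 0.209. The number of peaks was 6007 at a ratio of at least 2, 1645 at a ratio of at least 5, 1269 with at least 60 counts and 2127 with at least 10 Sox9 UMIs. It was 1219 without library C and 1571 without library D. The median ratio was 3.77 with at least 3 Sox9 UMIs, 5.93 with at least 10, 4.42 with each nucleus counted as 0 or 1 per peak, and 5.09 without library C. With 1 or 2 Sox9 UMIs, 1906 members passed 2-fold over 0-UMI nuclei of A and 1963 over those of B, in place of 875. The shares over all peaks with enough counts were 5.15% and 5.96%, in place of 1.85%. At a fold of 1.5, 459 of the 1762 nearest genes (26.0%) were higher in RNA, with no share over all genes at that fold to set beside it. In the 200 bases before the start the SOX core stood in 52.8% of member promoters and in 31.4% of the other promoters under the GC limit. Neighbours within 20 kb were found for 16.8% of members and within 100 kb for 44.9%. Leaving out the 5% of nuclei with most UMIs, an alternative chosen after seeing the data like the GC limit, gave 3109 peaks, of which 2924 were members. Motifs in whole peaks and at peak centres were not run, since no genome was used. No paired analysis was possible because no column carries a replicate number from the labels; both groups come from libraries C and D, and their ratios within each library are those given for C and D. Sparse counts limit single peaks: a member had 30 to 212 counts in Sox9-high nuclei.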
